A study of Arabidopsis thaliana with 79 samples.

Results

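AUR1 (AT4G32830) and AUR2 (AT2G25880) encode Aurora kinases, and PRL (PROLIFERA, AT4G02060) encodes MCM7, a subunit of the helicase that opens DNA at replication origins. The genes were chosen by name, and every array probe set annotated to 1 of them was read in all 36 groups of the study. Each gene had 1 probe set, 253403_at for AUR1, 266655_at for AUR2 and 255513_at for PRL, so the account concerns 3 of the 13350 genes named on the array and 3 of the 22746 probe sets tested. All 3 entered every test, since no filter on low values was applied.

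Aurora kinases phosphorylate proteins of the chromosomes and the mitotic spindle, and a cell makes most of them shortly before and during mitosis. In plants AUR1 and AUR2 form the alpha group, which acts at the spindle and at the forming cell plate and helps to place the plane of division. The MCM complex is loaded onto origins before S phase and then unwinds the DNA ahead of the polymerases. The transcripts of both kinds of gene are therefore known as marks of proliferating tissue, such as the root tip and young leaves.

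Messenger RNA was measured in roots (47 arrays) and shoots (32 arrays) of 7-day-old Arabidopsis thaliana seedlings of the accession Col-0 with Affymetrix ATH1 arrays. Every plant carried an epitope-tagged ribosomal protein, His6FLAG-RPL18B, driven by 1 of 13 promoters, so control and treated plants alike held the transgene. For the treatment, chambers holding the seedlings were flushed with argon for 2 h (hypoxia), with controls left in air, and ribosomes were then purified through the tag, which yields the RNA that the cells with an active promoter had on ribosomes. The promoters, with the cells named in the sample labels, were p35S (polysomes of the whole organ), pSCR (root endodermis), pSHR and pWOL (root vascular tissue), pGL2 (root atrichoblasts and shoot trichomes), pSUC2 and pSultr2;2 (phloem), pCO2 and pPEP (root cortex), pRPL11C (root meristematic cells), pRBCS (shoot mesophyll), pCER5 (shoot epidermis) and pKAT1 (shoot stomata). Total RNA of each organ, from p35S plants, was hybridised too, and pSultr2;2 was sampled in air only.

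Of the 36 groups, 30 had 2 arrays, 5 had 3 and 1 had 4, and precision is limited accordingly. A population is defined by where its promoter is active, not by sorted cells, so populations of an organ can overlap. Levels are log2 signals as the authors deposited them. Array medians ran from 6.31 to 6.64 and lower quartiles from 4.74 to 5.13. The correlation between arrays of a group was 0.973 to 0.994. PDC2, a fermentation enzyme induced by low oxygen, rose in all 17 populations sampled in both conditions, by 1.80 to 3.91 on the log2 scale.

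The promoter labels could be checked against their own genes only in part, since 2 of the 10 promoter genes looked for had a named probe set. The gene behind pPEP, AT1G09750, averaged 10.25 in control pPEP roots and was 2.50 ± 0.29 (SE) higher there than in the other root lines (adjusted p = 1.68e-09, limma). The gene behind pCO2, AT1G62500, averaged 4.86 in control pCO2 roots. It lay between 4.61 and 5.03 in all control root groups, within or close to the range of the array lower quartiles, and so did not set the pCO2 line apart.

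All 3 genes were measured well above the lower quartile on most arrays. AUR1 ran from 6.56 to 9.27 over the 47 root arrays with a median of 8.62, and from 6.71 to 8.52 over the 32 shoot arrays with a median of 7.92. AUR2 ran from 5.07 to 8.52 in roots with a median of 7.19, and from 5.12 to 7.86 in shoots with a median of 6.59. PRL ran from 5.89 to 8.42 in roots with a median of 7.59, and from 6.08 to 7.78 in shoots with a median of 6.76. For each gene the low end was made by the same lines, pPEP in roots and pSUC2 in shoots. Signals of different probe sets cannot be set against each other, so no gene is described here as more abundant than another. AUR1 and AUR2 are close paralogues with separate probe sets, and cross-hybridisation between them was not tested.

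**Figure D1:**
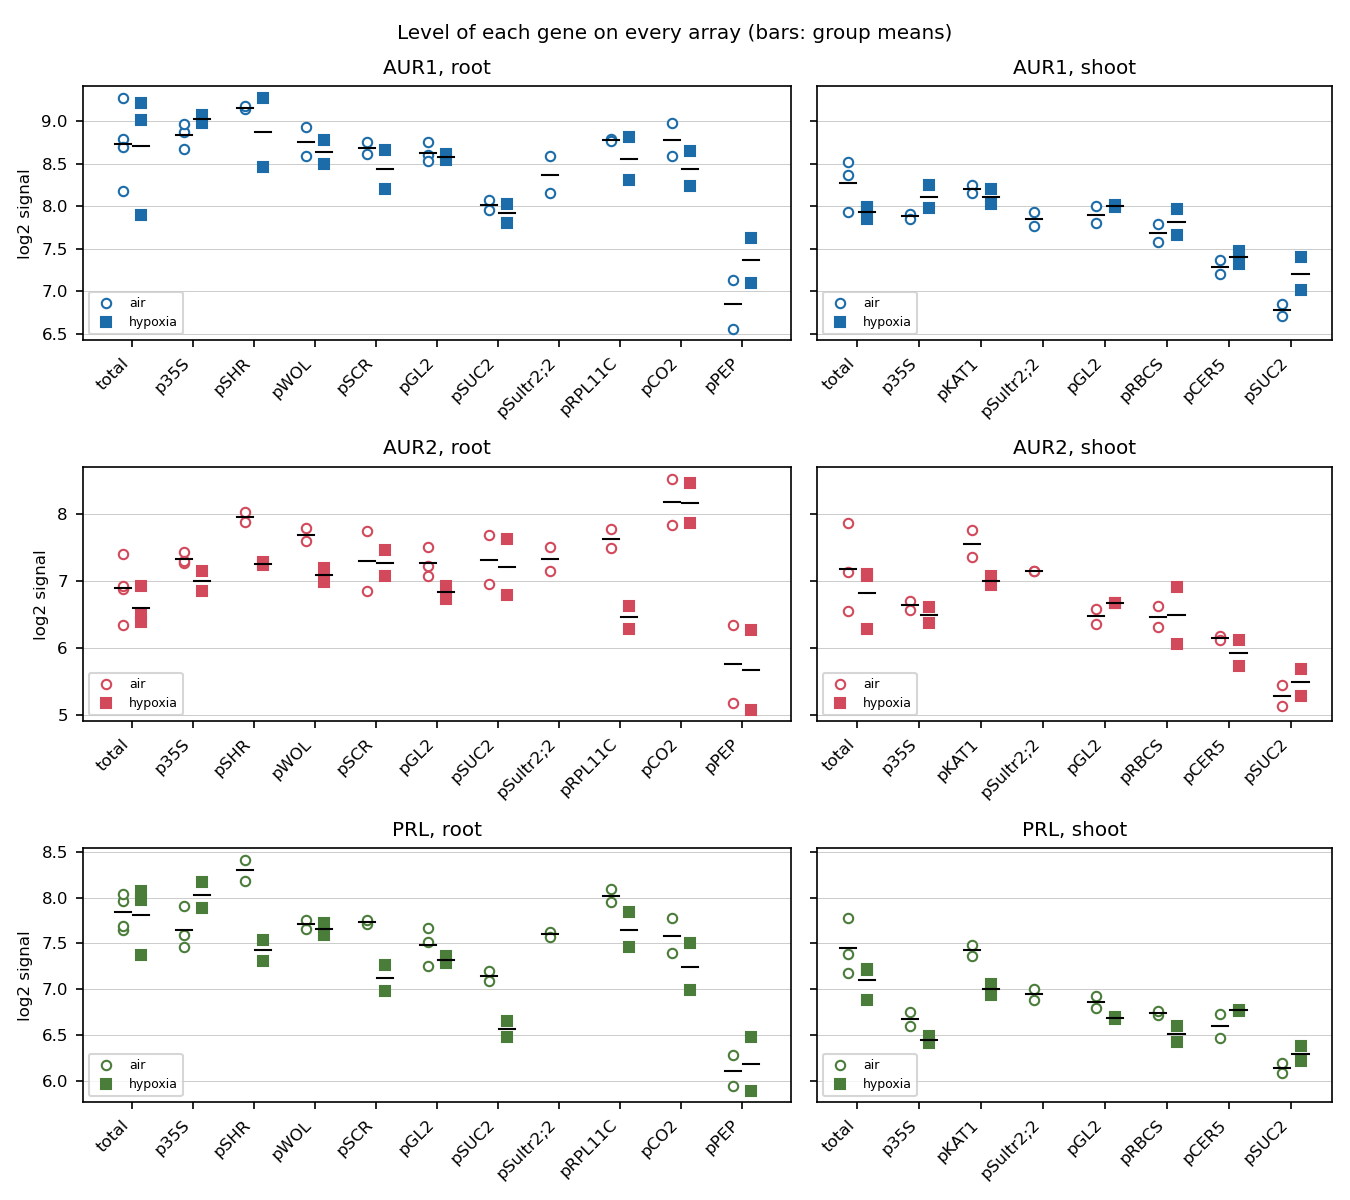
Log2 signal (vertical axis) of AUR1, AUR2 and PRL on every array, by RNA population (horizontal axis), in roots (left) and shoots (right). Open circles are arrays of plants kept in air, filled squares are arrays of hypoxic plants, and bars are group means; the root pPEP line and the shoot pSUC2 line sit lowest for all 3 genes.

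The first comparison asks where in the seedling the 3 genes were on ribosomes in air, with each promoter line set against the mean of the other promoter lines of its organ (p35S left out). The pPEP root cortex line was lower for all 3 genes, the pSUC2 shoot phloem line was lower for AUR1 and AUR2, and the pKAT1 shoot stomata line was higher for AUR2. A difference was called where the Benjamini-Hochberg adjusted p from limma, over all 22746 probe sets, was below 0.05 and the log2 difference was at least 1. By that rule 6 of 45 values were called, which is 13.3% of them, against 4.59% of the values of all probe sets. The mean of the other lines takes in pPEP in roots or pSUC2 in shoots, the lowest lines for each gene. This raises the differences of the remaining lines, among them the called value of AUR2 in pKAT1. No fit with the low lines taken out of that mean was run. In bulk samples such as these, fewer cells that express a gene and less RNA per cell cannot be told apart.

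In control roots the pPEP arrays read 6.56 and 7.14 for AUR1, and the 17 arrays of the other root lines read 7.95 to 9.17. The ranges did not overlap, and the log2 difference of the pPEP mean from theirs was -1.80 ± 0.21 (SE), or 3.47-fold lower (adjusted p = 1.06e-09, limma). For AUR2 the pPEP arrays read 5.17 and 6.34, below the 6.84 to 8.52 of the other lines. These replicates lay far apart, the lower near the array lower quartile, and the difference was -1.83 ± 0.27 (SE), 3.54-fold lower (adjusted p = 4.18e-07, limma). With 50 added to the linear signals it was -1.20 and still called. For PRL the pPEP arrays read 5.93 and 6.28, below the 7.09 to 8.42 of the other lines. The PRL difference was -1.59 ± 0.15 (SE), 3.01-fold lower (adjusted p = 4.85e-12, limma). Of all probe sets, 6.1% were called lower in pPEP. The gap between the 3′ and 5′ actin control probe sets, a measure of RNA and amplification quality, was 3.27 ± 0.21 (SD, n = 2) in control pPEP roots, inside the 2.72 to 4.16 of the other control root groups. A second actin pair gave 5.92 for pPEP, just under the 6.03 to 6.77 of the other control root groups.

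At the other end of the root lines stood pSHR. Its arrays read 9.14 and 9.17 for AUR1, above every array of the other root lines in air, the highest of which was 8.97. A total RNA array of control roots, left out of this comparison, reached 9.26 for AUR1. The pSHR arrays read 8.18 and 8.42 for PRL, again above the other lines, whose highest array was 8.09. The pSHR differences were 0.80 ± 0.21 (SE) for AUR1 (adjusted p = 0.00767, limma) and 0.88 ± 0.15 (SE) for PRL (adjusted p = 2.93e-05, limma). Both were under the minimum log2 difference of 1, as was that of AUR2, 0.64 ± 0.27 (SE), with an adjusted p of 0.167.

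AUR2 had a different highest line. Its pCO2 arrays in air read 7.84 and 8.52, and the pCO2 difference was 0.90 ± 0.27 (SE) with an adjusted p of 0.0186 (limma). Without the replicate at 7.84 it was 1.25 and past both thresholds (adjusted p = 0.0373). The same line was close to the others for PRL, with a difference of 0.07 ± 0.15 (SE). In the meristematic line pRPL11C the PRL arrays read 7.95 and 8.09 in air. That was 0.56 ± 0.15 (SE) over the other lines (adjusted p = 0.00472, limma), while AUR1 differed by 0.37 ± 0.21 (SE) and AUR2 by 0.28 ± 0.27 (SE) with adjusted p values above 0.05.

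Between these ends, neighbouring groups in the order of levels mostly did not differ beyond their spread. For AUR1, the 8 control root groups from p35S, with a mean of 8.84, down to pSultr2;2, with a mean of 8.37, each lay within the replicate spread of the next. The ends of that run did separate, the p35S arrays (8.66 to 8.97) lying above both pSultr2;2 arrays (8.15 and 8.59). The pSUC2 line stood below all 8 groups at 8.01 and pPEP below that at 6.85, each step larger than the replicate spread. For PRL, the 8 groups from pRPL11C at 8.02 down to pGL2 at 7.48 likewise lay within the spread of their neighbours, although groups further apart in the order did separate, the pRPL11C arrays lying above all pGL2 arrays (7.25 to 7.67). They were followed by pSUC2 at 7.14 and pPEP at 6.11. For AUR2, the 8 groups from pWOL at 7.69 to total RNA at 6.88 each lay within the spread of the next, and pPEP followed at 5.75. Groups further apart again separated, the pWOL arrays (7.59 and 7.78) lying above all p35S arrays (7.26 to 7.43) and all total RNA arrays (6.34 to 7.40).

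Across all probe sets, the share called in a root line, in either direction, was 4.78% for pSCR, 2.16% for pSHR, 0.567% for pWOL, 0.989% for pGL2 and 3.55% for pSUC2. It was 0.928% for pSultr2;2, 2.88% for pCO2 and 4.55% for pRPL11C. None of the 3 genes was called in these 8 lines.

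In control shoots the pSUC2 phloem arrays read 6.71 and 6.85 for AUR1, below the 7.21 to 8.25 of the 10 arrays of the other shoot lines. The AUR1 difference was -1.001 ± 0.21 (SE), 2.00-fold lower (adjusted p = 1.67e-04, limma). This value lay at the minimum difference: it was -0.76 with 50 added to the linear signals. It was between -0.93 and -0.99, with adjusted p values still below 0.05, when the first array of pSUC2, pSultr2;2 or pKAT1 or the second of pGL2, pRBCS or pCER5 was left out. For AUR2 the pSUC2 arrays read 5.12 and 5.43, close to the array lower quartiles, and the other lines 6.11 to 7.75. The AUR2 difference was -1.47 ± 0.28 (SE), 2.78-fold lower (adjusted p = 3.41e-05, limma). With 50 added to the linear signals it was -0.85. For PRL the pSUC2 arrays read 6.08 and 6.20, below the 6.47 to 7.48 of the others, and the difference was -0.78 ± 0.15 (SE) with an adjusted p of 5.56e-05 (limma), under the minimum. Of all probe sets, 6.74% were called lower in shoot pSUC2. The 3′ to 5′ actin gap was 2.52 ± 0.64 (SD, n = 2) there, the lowest of the control shoot groups, the next of which was 3.28. The second actin pair gave 5.62 there, inside the 4.65 to 6.15 of the other control shoot groups, and the part of RNA quality in the result was not tested.

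The stomata line pKAT1 stood at the top of the promoter lines of the shoot. Total RNA of control shoots, left out of this comparison, averaged 8.27 for AUR1 and 7.45 for PRL. The pKAT1 means were 8.20 and 7.43. For AUR2, total RNA averaged 7.17, with its highest array at 7.86. The pKAT1 arrays read 7.35 and 7.75 for AUR2 in air, above all 10 arrays of the other lines, which reached 7.15. The mean of the other lines, 6.30, includes the low pSUC2 line at 5.28. The pSultr2;2, pGL2, pRBCS and pCER5 lines averaged 7.15, 6.46, 6.46 and 6.14, and pKAT1 averaged 7.55. With pSUC2 left out of that mean the pKAT1 value would lie close to the minimum of 1, which was not tested. The difference from the full mean was 1.25 ± 0.28 (SE), 2.38-fold (adjusted p = 7.14e-04, limma), against 4.58% of all probe sets called higher. Without the pKAT1 array at 7.75 it was 1.05 with an adjusted p of 0.0654, and against p35S polysomes alone it was 0.92 with an adjusted p of 0.0866. For AUR1 the pKAT1 arrays read 8.15 and 8.25, above the 8.00 reached by the other lines, a difference of 0.70 ± 0.21 (SE) (adjusted p = 0.0139, limma). For PRL they read 7.37 and 7.48, above the 7.00 reached by the others, a difference of 0.77 ± 0.15 (SE) (adjusted p = 1.29e-04, limma). In hypoxic shoots too, the pKAT1 arrays of each gene lay above every array of the other lines compared, but narrowly for AUR1 and AUR2. The lower pKAT1 array read 8.021 against 8.015 for AUR1, 6.93 against 6.91 for AUR2 and 6.94 against 6.78 for PRL. A hypoxic p35S array, left out of this comparison, reached 8.25 for AUR1. How many of all probe sets had such a separation was not counted.

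Among the other shoot lines none of the 3 genes was called, with all-probe shares of 0.783% for pGL2, 5.41% for pRBCS, 1.42% for pSultr2;2 and 11.6% for pCER5. The epidermal pCER5 line was the next lowest after pSUC2 in air for each gene. Its differences were -0.40 ± 0.21 (SE) for AUR1, -0.44 ± 0.28 (SE) for AUR2 and -0.22 ± 0.15 (SE) for PRL, all with adjusted p values above 0.05. The second phloem line, pSultr2;2, did not share the low level of pSUC2: its arrays read 7.15 and 7.15 for AUR2, 7.77 and 7.93 for AUR1, and 6.88 and 7.00 for PRL, and each pair lay above the pSUC2 arrays.

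The other cell division genes give a context for the root and shoot patterns. Of 104 genes listed for replication, mitosis, cyclins, cytokinesis, the E2F and RB group and inhibitors of cyclin-dependent kinases, 8 had a named probe set. They were the replication genes AT1G07270, PSF2 and ICU2, the mitotic genes AUR3, WYR, BUB3.1 and BUBR1, and the kinase inhibitor SIM. Of their 120 line values 4 were called, 2 higher and 2 lower, which is 3.33% against the 4.59% of all probe sets. Group means ran from 3.91 to 4.85 for WYR and from 4.55 to 5.15 for AT1G07270. These lie near or below the array lower quartiles, which limits what could be called for both genes.

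In the pPEP line 1 of the 8 was called lower and 1 higher. BUB3.1, a spindle checkpoint gene, differed by -1.44 ± 0.15 (SE) there (adjusted p = 1.41e-10, limma). Its pPEP arrays read 6.83 and 7.09, and no other control root group had an array under 7.69. AUR3, the third Aurora kinase, had a difference of -0.82 ± 0.17 (SE), with pPEP arrays at 5.13 and 5.28, close to the array lower quartiles. PSF2, a subunit of the GINS complex that works with the MCM helicase, differed by -0.72 ± 0.15 (SE). These had adjusted p values of 1.56e-04 and 1.50e-04 (limma) but were under the minimum difference. ICU2, the catalytic subunit of DNA polymerase alpha, read 4.46 and 4.64 in pPEP, below every array lower quartile, so no size is given for it. The median over the 8 genes was -0.67, and over all probe sets it was 0.02. The 8 genes include ICU2, WYR and AT1G07270 at these low levels.

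SIM, an inhibitor of cyclin-dependent kinases that promotes endoreduplication, took the opposite direction. Its arrays read 10.51 and 10.84 in control pPEP roots, above every other control root array, and it was 1.04 ± 0.24 (SE) higher there (adjusted p = 5.03e-04, limma). In shoots it was 1.44 ± 0.25 (SE) higher in pSUC2 (adjusted p = 5.65e-06) and was lower in the mesophyll line pRBCS, with a difference of -1.32 ± 0.25 (SE) (adjusted p = 6.76e-05). The pPEP value of SIM lay at the minimum: it was 0.88 with an adjusted p of 0.054 without the second pPEP array, 0.97 with repeated quantile normalization and just under 1 with 50 added to the linear signals. Against p35S alone the pRBCS value was -1.01 with an adjusted p of 0.111.

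**Figure D2:**
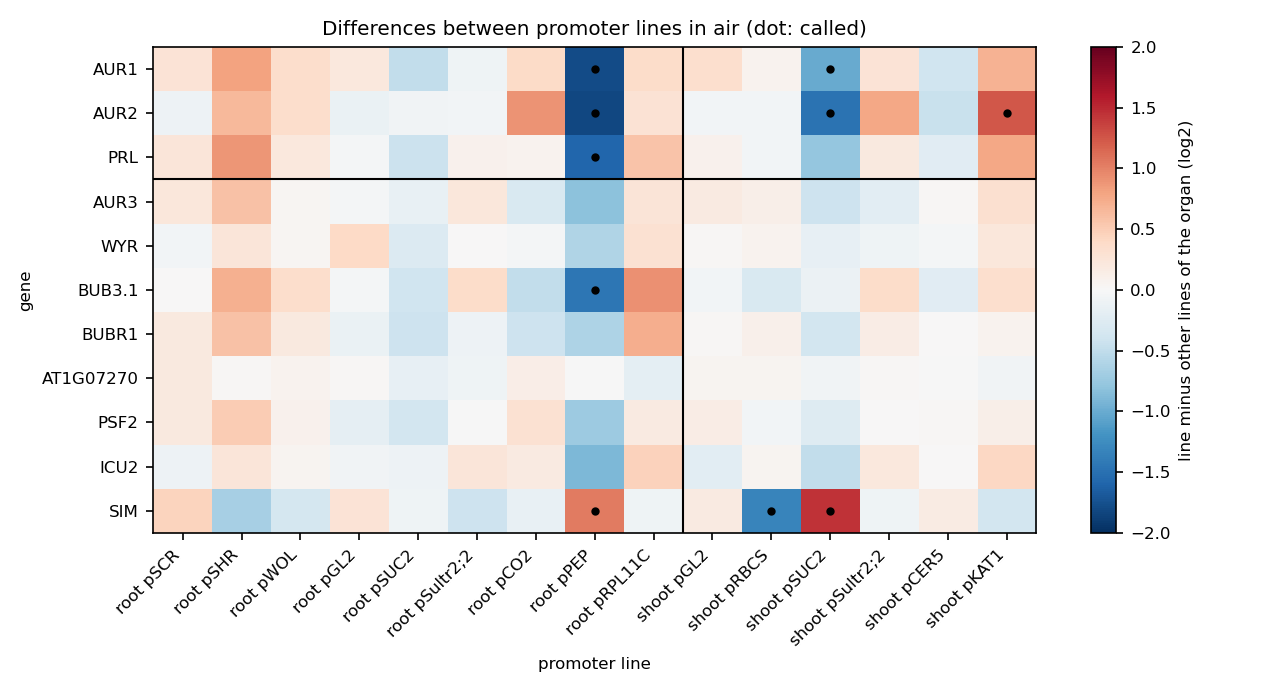
Log2 difference of each promoter line from the mean of the other promoter lines of its organ in air (colour, blue lower and red higher), for the 3 genes (top rows) and 8 further cell division genes, with root lines left of the vertical rule and shoot lines right of it. Dots mark called differences; the pPEP column is low for AUR1, AUR2, PRL and BUB3.1 and high for SIM.

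The 2 root cortex lines were then set against each other, a direct test between promoters that both carry a cortex label. In air it uses the pPEP arrays already found low above, so it is not independent of that result. All 3 genes were higher in pCO2 than in pPEP in air and in hypoxia, 6 of 6 values, where 12% of the values of all probe sets were called. Called higher in pCO2 were 7.41% of all probe sets in air and 6.56% in hypoxia. In air the pCO2 arrays read 8.58 and 8.97 for AUR1, 7.84 and 8.52 for AUR2, and 7.39 and 7.77 for PRL. No pPEP array reached any of these. AUR1 was 1.93 ± 0.27 (SE) higher, 3.81-fold (adjusted p = 4.41e-07, limma), and AUR2 was 2.43 ± 0.36 (SE) higher, 5.37-fold (adjusted p = 1.22e-06). The size of the AUR2 value was uncertain: it was 1.69 with 50 added to the linear signals, 3.01 without the first control pPEP array and 1.84 without the second, and called in each case. PRL was 1.48 ± 0.20 (SE) higher, 2.78-fold (adjusted p = 1.39e-07, limma). The 3′ to 5′ actin gap in air was 4.16 ± 0.20 (SD, n = 2) in pCO2 and 3.27 ± 0.21 (SD, n = 2) in pPEP. By the second pair it was 6.05 and 5.92. In hypoxia it was 3.62 in pCO2 and 3.31 in pPEP, and 5.695 and 5.51 by the second pair. The part of RNA quality in these differences was not tested.

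In hypoxia the pCO2 arrays read 8.24 and 8.64 for AUR1 and the pPEP arrays 7.09 and 7.63. The difference was 1.08 ± 0.27 (SE) with an adjusted p of 0.0027 (limma). For AUR2 the pCO2 arrays read 7.87 and 8.46 and the pPEP arrays 5.07 and 6.27, a difference of 2.49 ± 0.36 (SE) (adjusted p = 1.23e-06). It was 1.71 with 50 added to the linear signals, 3.09 without the first hypoxic pPEP array and 1.90 without the second. For PRL the pCO2 arrays read 6.99 and 7.50 and the pPEP arrays 5.89 and 6.48, a difference of 1.06 ± 0.20 (SE) (adjusted p = 6.27e-05). The hypoxic AUR1 and PRL values lay just above the minimum. Neither reached it with 50 added to the linear signals (0.89 and 0.71). Without the second hypoxic pCO2 array they were 0.88 and 0.81, and without the first hypoxic pPEP array 0.81 and 0.77. Of the 8 other division genes, PSF2 was higher in hypoxic pCO2 by 1.06 ± 0.20 (SE) (adjusted p = 1.01e-04), and SIM was lower, with differences of -1.05 ± 0.32 (SE) in air (adjusted p = 0.0108) and -1.43 ± 0.32 (SE) in hypoxia (adjusted p = 7.10e-04). Each of these 3 calls was lost without 1 array: PSF2 without the first hypoxic pCO2 array (0.94) or the second hypoxic pPEP array (0.99), SIM in air without the first control pCO2 array (-1.02, adjusted p = 0.0623) or the second control pPEP array (-0.89, adjusted p = 0.12), and SIM in hypoxia without the first hypoxic pPEP array (-1.09, adjusted p = 0.0502).

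**Figure D3:**
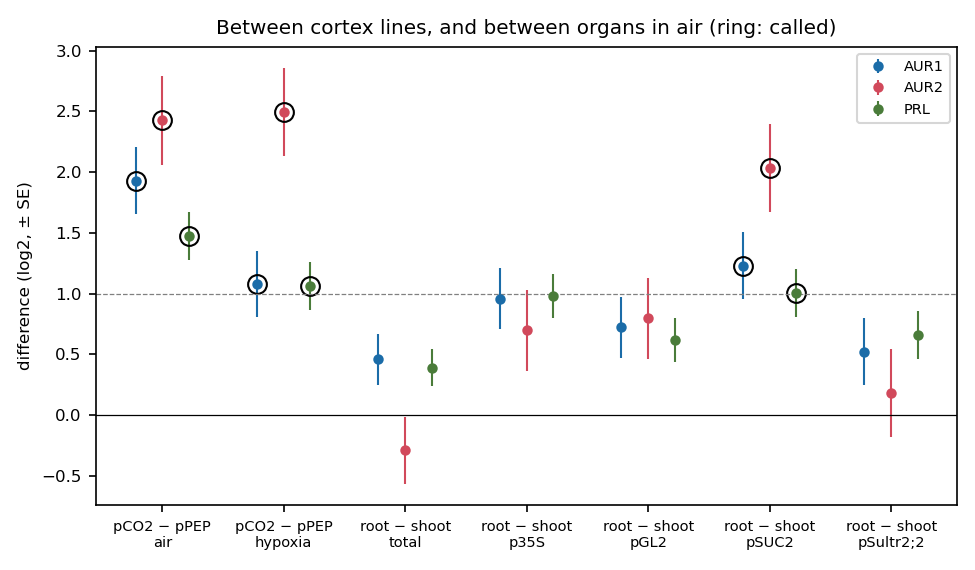
Log2 differences with standard errors for AUR1, AUR2 and PRL between the cortex lines pCO2 and pPEP in air and hypoxia, and between roots and shoots in air for the 5 populations sampled in both organs. Rings mark called values and the dashed line the minimum difference of 1; all 6 cortex values and the 3 pSUC2 values are ringed.

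The effect of 2 h of hypoxia was tested in each of the 17 populations sampled in both conditions. AUR2 fell in the root meristematic line pRPL11C, and no other value of the 3 genes was called, 1 of 51 or 1.96%, against 4.14% of the values of all probe sets. Of the 51 differences 14 were above 0, and the median was -0.15 on the log2 scale. Over all probe sets 184837 of 386682 differences were above 0, with a median of -0.01. The 51 differences come from 3 genes over populations that can overlap, so they are not independent. At an unadjusted p below 0.05 there were 7 of the 51 values, 1 for AUR2 and 6 for PRL, against 68962 of the 386682 values of all probe sets.

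The control pRPL11C arrays read 7.49 and 7.77 for AUR2 and the hypoxic arrays 6.28 and 6.62, with no overlap. AUR2 fell by 1.18 ± 0.36 (SE), 2.26-fold (adjusted p = 0.0169, limma), in a contrast in which 5.52% of all probe sets were called lower. The call rested on single arrays: without control replicate 2 the difference was -1.04 with an adjusted p of 0.141, and without hypoxic replicate 1 it was -1.01 with an adjusted p of 0.118. With 50 added to the linear signals it was -0.85. The 3′ to 5′ actin gap was 3.17 ± 1.00 (SD, n = 2) in control and 2.68 ± 0.48 (SD, n = 2) in hypoxic pRPL11C, and 6.77 ± 0.13 and 5.96 ± 0.39 by the second pair; its part in the result was not tested. In the same line AUR1 differed by -0.22 ± 0.27 (SE) and PRL by -0.37 ± 0.20 (SE), with adjusted p values of 0.65 and 0.203. Whether AUR2 responded differently from AUR1 there was not tested.

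PRL showed its largest hypoxic differences in other root lines. In pSHR its arrays read 8.18 and 8.42 in air and 7.31 and 7.54 in hypoxia, a difference of -0.88 ± 0.20 (SE) (adjusted p = 0.00155, limma). In pSCR they read 7.71 and 7.75 in air and 6.98 and 7.27 in hypoxia, a difference of -0.61 ± 0.20 (SE) (adjusted p = 0.0398). In root pSUC2 they read 7.09 and 7.20 in air and 6.48 and 6.65 in hypoxia, a difference of -0.58 ± 0.20 (SE) (adjusted p = 0.0482). The arrays of the conditions did not overlap in these 3 lines, and all 3 values passed the adjusted p without reaching the minimum difference. In root p35S polysomes the PRL difference was 0.38 ± 0.18 (SE), with an adjusted p of 0.306.

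AUR1 gave no value with an unadjusted p below 0.05. Its differences ran from -0.34 in root pCO2 to 0.51 ± 0.27 (SE) in root pPEP, where the arrays read 6.56 and 7.14 in air and 7.09 and 7.63 in hypoxia and so overlapped. In whole-organ total RNA the AUR1 difference was -0.03 ± 0.21 (SE) in roots and -0.33 ± 0.22 (SE) in shoots. For AUR2 the same values were -0.29 ± 0.28 and -0.36 ± 0.30 (SE), and for PRL -0.03 ± 0.15 and -0.34 ± 0.16 (SE). Replicate numbers were taken to pair the total RNA samples, although the labels name no shared batch. The 3 root pairs had mixed signs, with PRL at 0.33, 0.11 and -0.67, AUR2 at 0.04, -0.42 and -1.03, and AUR1 at 0.23, -0.06 and -0.28. Within the 3 shoot pairs PRL differed by -0.30, -0.16 and -0.57, AUR2 by -0.26, -0.06 and -0.75, and AUR1 by 0.05, -0.53 and -0.52. PRL and AUR2 were thus lower under hypoxia in each shoot pair and AUR1 in 2 of 3. With the pairs as a block the adjusted p values from limma were 0.286 for PRL, 0.209 for AUR2 and 0.264 for AUR1.

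Over all probe sets, the share called under hypoxia in roots was 3.37% for total RNA, 2.84% for p35S, 5.32% for pSCR, 5.54% for pSHR and 6.06% for pWOL. It was 4.29% for pGL2, 5.8% for pSUC2, 7.01% for pCO2 and 6.43% for pPEP. In shoots it was 1.81% for total RNA, 1.22% for p35S, 1.37% for pGL2, 1.3% for pRBCS, 2.76% for pSUC2, 3.35% for pCER5 and 3.26% for pKAT1. Of the 136 hypoxia values of the 8 other division genes 1 was called, and 6 had an adjusted p below 0.05 (limma). In pRPL11C, ICU2 differed by -0.997 ± 0.21 (SE) (adjusted p = 4.06e-04, limma), just under the minimum. Its hypoxic arrays there read 4.75 and 4.76, near the array lower quartiles. BUBR1 averaged 7.13 in air and 7.91 in hypoxia in that line, and the median difference over the 8 genes was -0.18. The called value was SIM, which fell in root pGL2 by 1.09 ± 0.29 (SE) (adjusted p = 0.0103, limma). Its arrays read 9.97 to 10.00 in air and 8.86 and 8.93 in hypoxia. The call was lost without either hypoxic array (adjusted p = 0.0612 and 0.132).

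**Figure D4:**
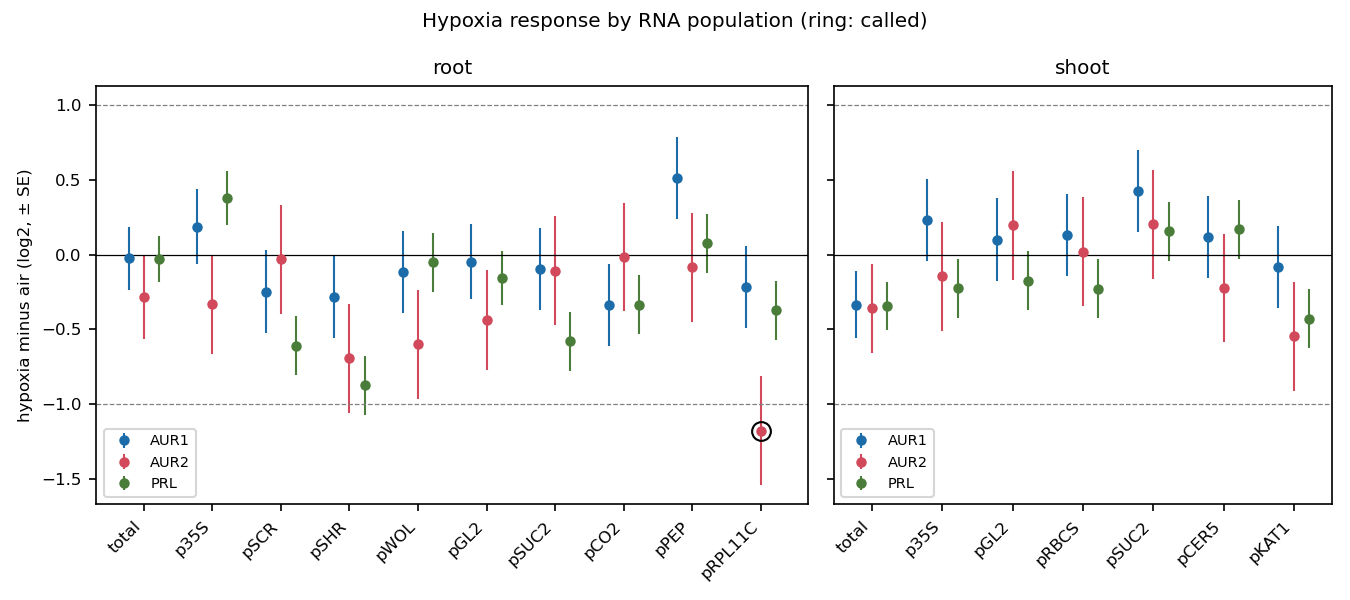
Log2 difference between hypoxia and air with its standard error (vertical axis) for AUR1, AUR2 and PRL in 10 root populations (left) and 7 shoot populations (right). Dashed lines mark the minimum difference of 1 in either direction, and the ring marks the 1 called value, AUR2 in pRPL11C.

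Whether the hypoxia responses differed among lines was tested with an F-test over the promoter lines of each organ, 8 in roots and 5 in shoots. None of the 3 genes passed it in limma without a replicate block, against 3.39% of all probe sets in roots and 1.29% in shoots. In roots the adjusted p from limma was 0.908 for AUR1, 0.74 for AUR2 and 0.226 for PRL. The unadjusted p was below 0.05 for PRL alone, in roots (0.0232, limma). The responses of the root lines spanned 0.85 for AUR1, 1.16 for AUR2 and 0.95 for PRL on the log2 scale. With a replicate block, which takes replicate numbers as pairs, AUR2 passed the F-test in roots, so its result depended on that choice. Replicates 1 and 2 of AUR2 read 6.34 and 5.17 in control pPEP, and 6.27 and 5.07 in hypoxic pPEP. In root pCO2 they read 8.52 and 7.84 in air, and 8.46 and 7.87 in hypoxia. Their order was also kept in root pSUC2, pSCR and pRPL11C, but reversed in pSHR, pWOL and pGL2. The fit without a block counts an offset shared by both conditions as spread.

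Polysomal RNA of the whole organ, from p35S, was compared with total RNA. None of 12 values was called for the 3 genes in limma, and 2 had an unadjusted p below 0.05, as had 23038 of the 90984 values of all probe sets. Of all probe sets, 6.03% were called in control roots, 4.66% in hypoxic roots, 3.13% in control shoots and 3.54% in hypoxic shoots. Both of the low p values belonged to PRL in shoots. In control shoots its p35S arrays read 6.59 and 6.75, and its total RNA arrays 7.18, 7.38 and 7.78. The difference was -0.78 ± 0.18 (SE) (adjusted p = 0.00274, limma). In hypoxic shoots the p35S arrays read 6.41 and 6.48 and the total RNA arrays 6.88, 7.21 and 7.22, a difference of -0.66 ± 0.18 (SE) (adjusted p = 0.011). The groups did not overlap in either condition. In roots the PRL difference was -0.19 ± 0.15 (SE) in air and 0.22 ± 0.18 (SE) in hypoxia.

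The change of the polysomal against the total RNA difference under hypoxia was not called for any of the 3 genes in either organ in limma. None of the 6 values had an unadjusted p below 0.05, against 1237 of the 45492 values of all probe sets. The 6 values ran from -0.05 to 0.56, and 0.0264% of all probe sets were called in roots and 0% in shoots.

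Roots and shoots were compared in air in the 5 populations sampled in both organs. All 3 genes were higher in root than in shoot pSUC2, and 14 of the 15 values were above 0, against 53427 of the 113730 values of all probe sets. Those 3 were the only values called, 20% of 15, against 22.1% of the values of all probe sets, a share close to the background. Of all probe sets, 12.5% were called higher in root pSUC2, and 22.9% were called in either direction in total RNA, 22.1% in p35S, 21.5% in pGL2 and 22.2% in pSultr2;2.

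In pSUC2 the root arrays read 7.95 and 8.07 for AUR1, 1.23 ± 0.27 (SE) above the shoot arrays (adjusted p = 2.61e-04, limma), or 0.94 with 50 added to the linear signals. For AUR2 they read 6.95 and 7.68, a difference of 2.04 ± 0.36 (SE) (adjusted p = 8.08e-06), or 1.24 with 50 added. For PRL they read 7.09 and 7.20, a difference of 1.01 ± 0.20 (SE) (adjusted p = 3.88e-05). The PRL value lay at the minimum and was 0.67 with 50 added and 0.95 without the second root array. It was also 0.95 without the first shoot array. The 3′ to 5′ actin gap was 3.76 ± 0.02 (SD, n = 2) in root and 2.52 ± 0.64 (SD, n = 2) in shoot pSUC2, and 6.23 and 5.62 by the second pair; its part in these differences was not tested. In p35S polysomes the difference was 0.96 ± 0.25 (SE) for AUR1 (adjusted p = 0.00156) and 0.98 ± 0.18 (SE) for PRL (adjusted p = 1.11e-05), just under the minimum. AUR2 in total RNA was the 1 value below 0, at -0.29 ± 0.28 (SE).

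No difference between the organs in the hypoxia response was called for the 3 genes in limma, with 2 of 12 unadjusted p values below 0.05, both of PRL. Over all probe sets 9226 of 90984 values had an unadjusted p below 0.05. The shares of all probe sets called were 1.61% for total RNA, 0.611% for p35S, 1.44% for pGL2 and 2.11% for pSUC2. For PRL the root minus shoot difference in response was 0.60 ± 0.27 (SE) in p35S (adjusted p = 0.612) and -0.73 ± 0.28 (SE) in pSUC2 (adjusted p = 0.189).

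The patterns of the 3 genes over the 36 group means were compared with each other and with every other named gene, as a description. AUR1 and PRL had a Pearson correlation of 0.918, AUR1 and AUR2 0.795, and AUR2 and PRL 0.733. Within roots, over 21 groups, these were 0.931, 0.655 and 0.572, and within shoots, over 15 groups, 0.736, 0.902 and 0.861. The groups share an organ, a normalization and in part the same tissues, so the points are not independent. Among deviations of the 79 arrays from their group means the correlations were 0.335, -0.111 and 0.229.

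The genes most like AUR1 over the group means, among the 13507 other probe sets with 1 gene, were AT5G48310 (r = 0.935), UBC20 (r = 0.935), AT3G27330 (r = 0.92), PRL (r = 0.918) and AT3G54750 (r = 0.914). UBC20 encodes a ubiquitin-conjugating enzyme. For PRL they were UBC20 (r = 0.935), AUR1 (r = 0.918), AT5G17160 (r = 0.9), AT3G42660 (r = 0.899) and AT1G10780 (r = 0.898). UBC20 stood in both lists. For AUR2 they were FU (r = 0.845), AT2G34190 (r = 0.84), AT2G47610 (r = 0.836), AT5G55520 (r = 0.834) and AT2G37190 (r = 0.828), with AUR1 in place 15 and PRL in place 68. Of the other division genes, BUB3.1 ranked 28 for AUR1 and 16 for PRL, while SIM ranked 3741 for AUR1 (r = 0.227), 4384 for AUR2 (r = 0.137) and 3877 for PRL (r = 0.235).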

How the data were processed

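The deposited values are log2 signals that the authors made with RMA in the R package affy, per the submitters' processing notes, which give no version; the set of arrays normalized jointly is not given in the sources used here. Per the labels' protocols, 15 to 100 ng of RNA from independent replicate experiments went through 2 cycles of cDNA synthesis. Probe sets took gene names from the platform annotation. Of 22810 probe sets, 64 controls were left out, 13513 had 1 gene, 503 several and 8730 no name here.

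One limma model (version 3.58.1, R 4.3.3) of 36 group means over 79 arrays was fitted with empirical Bayes variances (43 residual and 4.48 prior degrees of freedom), and p-values were adjusted per contrast over 22746 probe sets. It was tested on simulated data. A line was compared with the mean of its organ's other promoter lines, p35S excluded. Neighbouring groups were held apart where their arrays did not overlap and the gap of means exceeded the larger SD.

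The genes, lists and tests were chosen with earlier results of these data known. The text gives the 3 genes and other division genes that were called (at most 3 rises and 3 falls per contrast). It also gives values of ICU2, AUR3, PSF2, BUBR1, WYR and AT1G07270, chosen after their values were seen. The 5 most similar genes and the promoter genes are given too. The first actin pair was chosen after the second had been read. Replicate numbers were taken to pair the total RNA samples (correlations of deviations 0.262 to 0.724 in roots and 0.224 to 0.596 in shoots). For the promoter lines these correlations were mixed. Root pSHR had 0.594, pSCR 0.413 and pCO2 0.337, while root pWOL had -0.0137 and pRPL11C -0.229. The main fit left all arrays unpaired. No sequence is shown.

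Alternatives were an offset of 50, repeated quantile normalization, centring on one median, a highest group mean of at least 6, fits per organ, a replicate block, trended robust variances, no minimum fold, p35S as reference and leaving out each array.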

Additional observations from a re-analysis of the deposited data

How the results depend on the processing

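No called value of the 3 genes changed sign under any alternative. Uncalled values did in 85 of 2232 comparisons with an alternative, none with a reported size above 0.38; the replicate block turned AUR1 in polysomal against total root RNA from 0.11 to -0.08 in air and from 0.32 to -0.09 in hypoxia. Of the 1 hypoxia call, 6 line calls, 6 cortex calls and 3 organ calls of the 3 genes, adding 50 to the linear signals left 0 hypoxia calls, 3 line calls, 4 cortex calls and 1 organ call. Repeated quantile normalization and median centring also left 4 cortex calls. Dropping the minimum fold gave 4 hypoxia, 13 line, 2 polysome against total RNA (from 0) and 9 organ calls, and for the other division genes 6 hypoxia calls (from 1) and 19 line calls (from 4). For those genes an offset of 50 and repeated quantile normalization each left 3 line calls, the lost one being SIM in pPEP, repeated quantile normalization gave 2 hypoxia calls, and p35S as reference 7 line calls. With a replicate block, 1 F-test among root lines was called (from 0): AUR2, with responses spanning 1.16 and an adjusted p of 0.0454. Leaving out single arrays gave 0 to 1 hypoxia calls for the 3 genes and 0 to 2 for the other division genes. AUR1 and PRL in the hypoxic cortex comparison, AUR1 in shoot pSUC2 and PRL between root and shoot pSUC2 went under the minimum with repeated quantile normalization and with median centring, which moved array medians by -0.169 to 0.162; the cause was not tested. The AUR2 values near the array lower quartile, in pPEP roots and pSUC2 shoots, are limited by signal over background.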
